A study of Mus musculus with 20 samples.

Results

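The levels of 8 myelin genes, Mbp, Mag, Mog, Mobp, Cldn11, Cnp, Ermn and Mal, were followed in single cells of the mouse habenula from E11 to the adult. The members were taken by symbol: all 8 are among the 37994 genes of the table of the developmental series, and 7 are among the 36104 genes of the table of a second set at E18, in which Ermn was not analysed. Cells were captured in plates of 384 wells and read with Cel-seq2, a 3'-end method in which each transcript carries a unique molecular identifier (UMI). The developmental series came from the Brn3a-tauLacZ line, named for a tau-LacZ reporter at Brn3a, the older name of the habenular transcription factor Pou4f1, with 1 plate for E12 and 2 for every other stage: E11, E13, E15, E18, P4, P7 and adult. The second set was of E18 only, from C57BL/6 mice: the left habenula filled 2 plates, the right another 2, and 1 plate held both sides. The number of reporter alleles, the number of animals per plate, their sex, the age of the adults and the gate of any sort were not given in these sources. The p-values below measure only the spread between plates, which may be technical. Mouse line and set cannot be told apart, and which plates shared a sequencing run is not given.

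Myelin is the multilayered membrane that oligodendrocytes, the myelinating glia of the central nervous system, wrap around axons. Oligodendrocyte precursors mature into newly formed and then myelinating cells, and the genes of the myelin proteins are switched on late in that course. Mbp encodes myelin basic protein and Mobp a second basic protein, both of which lie on the inner faces of the compacted membrane, and Mal encodes a raft-associated proteolipid of the sheath. Mag encodes an adhesion molecule at the contact with the axon and Mog a glycoprotein of the outermost surface. Cldn11 encodes the tight junction protein between the layers, Cnp a cyclic nucleotide phosphodiesterase of uncompacted myelin and Ermn the cytoskeletal protein ermin. The locus of Mbp also gives rise to golli transcripts, which are known from neurons and lymphoid cells as well. Pou4f1 marks the neurons of the habenula, which do not make myelin.

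All 8 genes stood higher in the adult, and the promoters of 4 are shown for their matches to motifs of oligodendrocyte transcription factors: Mag, Mog and Cnp hold the Myrf-type motif and Mobp the most SOX-type matches, while Ermn, with 1 SOX-type match, is not printed. RefSeq (GRCm38.p6) gave a start for 7 of the 8 members. In the 250 bases before the start, both strands were searched for a SOX-type motif (ACAAAG or ACAATG), a Myrf-type motif (CTGGCAC or CTGGTAC) and the E-box CANNTG. The Myrf-type motif was in 3 of the 7 windows, those of Mag, Mog and Cnp, and in 5.93% of all 32851 promoter windows of the same length. The SOX-type motif was in 4 of the 7, those of Mag, Mobp, Cnp and Ermn, and in 25.2% of all windows. Mobp held 6 SOX-type matches, and 1 window of the 32851 held 6 or more. The E-box was in 1 of the 7, that of Cnp, and in 66.2% of all windows. These are matches of letters and not sites of binding, and Cldn11 and Mal had none of the 3 motifs in this window. The sequences run 5' to 3' in the direction of the gene, end before the annotated transcript, and show the SOX-type and Myrf-type matches in capitals. Mag lies at chr7:30914923-30915172 on the minus strand, Mog at chr17:37023399-37023648 on the minus strand, Cnp at chr11:100574689-100574903 on the plus strand and Mobp at chr9:120149492-120149706 on the plus strand.
Mag: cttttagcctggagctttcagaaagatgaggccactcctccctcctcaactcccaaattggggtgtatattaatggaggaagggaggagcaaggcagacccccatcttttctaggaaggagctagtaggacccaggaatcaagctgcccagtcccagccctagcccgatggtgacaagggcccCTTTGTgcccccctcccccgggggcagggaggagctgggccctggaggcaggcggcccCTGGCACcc
Mog: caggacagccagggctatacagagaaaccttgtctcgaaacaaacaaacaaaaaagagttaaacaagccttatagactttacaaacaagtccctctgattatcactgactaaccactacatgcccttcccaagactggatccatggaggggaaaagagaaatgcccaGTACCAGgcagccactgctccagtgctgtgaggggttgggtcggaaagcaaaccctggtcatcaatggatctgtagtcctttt
Cnp: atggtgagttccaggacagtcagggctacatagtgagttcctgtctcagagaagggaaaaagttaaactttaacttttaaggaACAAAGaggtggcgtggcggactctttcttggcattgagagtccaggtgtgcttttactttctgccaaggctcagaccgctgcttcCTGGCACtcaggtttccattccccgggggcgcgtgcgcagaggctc
Mobp: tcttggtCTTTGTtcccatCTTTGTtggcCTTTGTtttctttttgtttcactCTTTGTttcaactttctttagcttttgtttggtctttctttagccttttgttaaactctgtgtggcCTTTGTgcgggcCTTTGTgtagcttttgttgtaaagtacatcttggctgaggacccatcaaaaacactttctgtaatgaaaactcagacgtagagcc

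Counting of each plate rested on the wells kept as cells. In the series, total counts of kept cells were lowest on adult plate 1, at 758697, and highest on P7 plate 1, at 7760372, and they ran from 1849863 to 6586449 in the second set. Adult plate 1 stood apart, with 56 kept cells of 384 wells at a median of 5058 counts, against 342 kept cells at a median of 11303 on adult plate 2. Its median mitochondrial share was 11.9%, against 4.76% to 6.56% on the other 14 plates of the series. Levels are CPM, a gene's counts scaled to 1000000 counts of all genes in a plate's kept cells or in a named class of them, so a plate's level joins the number of cells of each type with the transcripts per cell. No 2 kept cells of either set held identical values. GENCODE M21 (GRCm38) places the genes, exons and introns together, at chr7:30899176-30914873 for Mag, chr17:37010743-37023398 for Mog, chr9:120149707-120181484 for Mobp, chr3:31149920-31164324 for Cldn11, chr11:100574904-100591729 for Cnp, chr2:58045113-58052864 for Ermn and chr2:127633226-127656695 for Mal. Cnp overlaps Dnajc7, Ermn overlaps Galnt5, Mog overlaps the short RNA Gm22388 and Mbp overlaps the processed pseudogene Rpl21-ps8, all on the opposite strand, and Mobp overlaps Gm38642 on its own strand. Whether counting used strand is not given, so counts of these 5 genes are uncertain to that extent.

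All 8 genes were far higher in the adult habenula than at P7. Mbp stood at 39.3 and 23.0 CPM on the 2 P7 plates and at 997 and 298 CPM on the 2 adult plates. Cnp stood at 50.0 and 46.5 CPM at P7 and at 1169 and 249 CPM in the adult. Cldn11 went from 17.8 and 8.47 CPM to 726 and 125 CPM. For these 3 genes the transcripts were already counted at P7, and both adult plates lay above both P7 plates. The surface protein genes had next to none at P7. Mag stood at 1.81 and 2.99 CPM at P7 and at 684 and 139 CPM in the adult. Mog had 0 counts and 1 count at P7 and stood at 301 and 58.9 CPM in the adult. The groups did not overlap for either gene. Mobp had 0 counts on both P7 plates, where 3 counts would be 0.387 and 0.528 CPM, and stood at 207 and 65.1 CPM in the adult. Ermn had 0 counts and 1 count at P7 and stood at 219 and 41.2 CPM in the adult. Mal had 2 and 7 counts at P7, or 0.258 and 1.23 CPM, and stood at 417 and 93.4 CPM in the adult. Again every adult plate lay above every P7 plate. How many of all genes were separated in this way was not counted.

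Mbp, Mag, Cldn11 and Cnp passed the filter on low counts without the adult plates, whereas Mog, Mobp, Ermn and Mal passed it only through them and had to differ. By edgeR's quasi-likelihood test over 14 plates with Benjamini-Hochberg adjustment, 4 of those first 4 members rose from P7 to the adult. Beside them rose 1.76% of the 17453 genes tested, and 1.54% of the 16807 that passed without the adult plates. The log2 fold change was 4.24 (SE 0.53, adjusted p = 0.00369) for Mbp, 3.75 (SE 0.63, adjusted p = 0.0149) for Cnp and 4.86 (SE 1.00, adjusted p = 0.0281) for Cldn11. Mag rose by a log2 fold change of 7.30 (SE 0.78, adjusted p = 0.00167), a 172-fold difference of mean CPM. The median log2 fold change of these 4 was 4.55, against -0.02 over all genes tested. For the other 4 only the size is given, with no test. By the mean CPM of the 2 adult plates, 207 and 65.1, Mobp was at least 611-fold higher in the adult. This is set against 3 counts over both P7 plates and is no bound for each adult plate alone. With 1 count each at P7, the pooled ratio was 1217 (95% counting interval 218 to 48171) for Mog and 866 (155 to 34315) for Ermn, and Mal had a log2 fold change of 8.33 (SE 1.21). Of the 4 members tested, 2 passed without P7 plate 1, 1 without P7 plate 2, 2 without adult plate 1 and 4 without adult plate 2, each time with 1 lone plate assumed to vary like the other stages. Of all genes, 0.145%, 0.15%, 0.302% and 5.81% were called in either direction in these fits, and the median of the 4 members was 5.09, 4.13, 3.10 and 5.33. Mag was among them each time.

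**Figure D1:**
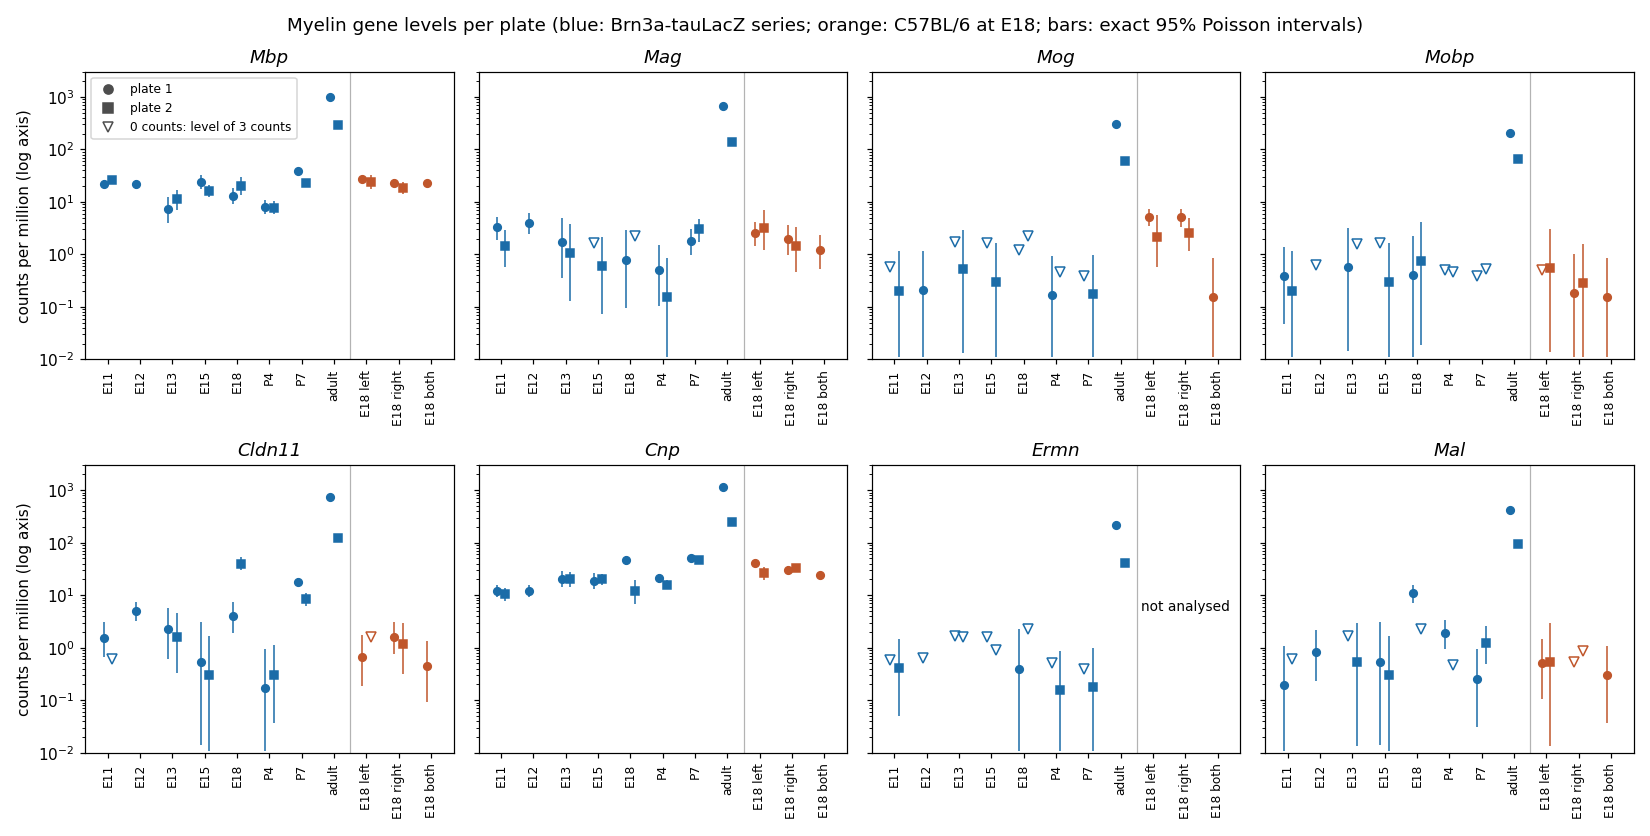
Level of each myelin gene in CPM (log axis) on every plate by stage, with plates 1 and 2 as circles and squares, exact 95% Poisson intervals as bars, and open triangles at the level of 3 counts where a plate had 0. Both adult plates lie above all other plates for every gene, while Mbp and Cnp were counted on all plates from E11 on.

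Adult plate 1 was above adult plate 2 for each of the 8 genes. The ratio of the plates ran from 3.18 for Mobp to 5.80 for Cldn11, with a median of 4.81. The 16 markers of mature oligodendrocytes that are no members summed to 8741 CPM on adult plate 1 and 2101 CPM on adult plate 2, against 132 to 136 CPM at P7. On adult plate 1, 47 of 56 kept cells had a UMI of at least 3 of those markers, and on adult plate 2 it was 151 of 342. Such a cell may hold stray transcripts of the markers, and the class is a range rather than a cell type. The 7 precursor markers summed to 925 to 1011 CPM at P7 and 1361 to 1469 CPM in the adult, the 7 astrocyte markers to 94.2 to 129 CPM and 671 to 1163 CPM, and the 6 endothelial and mural markers to 86.3 to 88.1 CPM and 114 to 426 CPM. Their part in the members' rise was not tested. Markers of Schwann cells, the myelinating glia of peripheral nerve, summed to at most 4.40 CPM on the P7 and adult plates.

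From P4 to P7 none of the members passed the test. Mbp stood at 8.14 and 7.82 CPM at P4 against its 39.3 and 23.0 CPM at P7, a log2 fold change of 1.95 (SE 0.51). Cldn11 had 1 and 2 counts at P4 and 138 and 48 counts at P7, a pooled ratio of 57.3 (95% counting interval 19.3 to 280.2). Cnp stood at 20.9 and 16.0 CPM at P4, below both P7 plates. Mag had 3 counts and 1 count at P4 and 14 and 17 at P7. For these 4 genes the plates of the stages did not overlap, but the share of all genes for which this holds was not counted. With edgeR, 0 of 8 members passed at an adjusted p of 1.00, beside 0.00573% of genes. The unadjusted p was under 0.05 for 4 of 8 members, Mbp, Mag, Cldn11 and Cnp, and for 475 of the 17453 genes tested, or 2.72%, and DESeq2 also called 0 of 8, beside 0.126%. When the 4 plates of both stages were fitted alone, 3 members passed, beside 3.64% of genes.

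The counts of P7 sat in few wells. Of all Mbp counts at P7, 77.5% lay in the 8 wells with 4 or more of the mature markers, where the level was 1910 CPM. The same 8 wells held 54.5% of the Cnp counts at 2010 CPM, 51.1% of the Cldn11 counts at 539 CPM and 74.2% of the Mag counts at 130 CPM. Mog, Mobp, Ermn and Mal had 0 counts there. In 1 well of P7 plate 1, with 201 UMIs of Mbp, 54 of Cnp, 31 of Cldn11 and 10 of Mag, the stage markers Bcas1 and Enpp6 of newly formed oligodendrocytes had 76 and 47 UMIs. That well also had 1 UMI of Pou4f1 and UMIs of 7 of the 10 neuron markers. On P7 plate 2 the leading well had 67 UMIs of Mbp, 64 of Cnp, 16 of Cldn11 and 13 of Mag. Bcas1 had 95 and Enpp6 36 UMIs there, and 8 of the 10 neuron markers had a UMI. Without the first of these wells, a choice made after its counts were seen, Mbp in the P4 to P7 comparison had a log2 fold change of 1.16.

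Cldn11 had a second place. At P7, 42.5% of its counts lay in 12 wells with 5 or more UMIs of each of Col1a1, Col3a1 and Dcn, collagen and matrix genes of fibroblasts, at 480 CPM. This class was set after values were seen and is given as a description. From E11 to E18 it held 61.6% of the Cldn11 counts, 64 of 104, in 14 wells at 468 CPM. E18 plate 2 had 53 counts of Cldn11, or 40.0 CPM, and E18 plate 1 had 10 counts, or 3.99 CPM. Against the 1 and 2 counts at P4, Cldn11 fell from E18 to P4 in edgeR (log2 fold change -6.03, SE 1.58, adjusted p = 0.0238). It was the 1 member of 8 that did, beside 10.4% of genes that fell. Without E18 plate 2 the adjusted p was 0.178, and without P4 plate 1 or 2 it was 0.122 or 0.131.

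Before P4 only Mbp and Cnp were counted on each plate. From E11 to E18, Mbp ran from 7.38 to 26.4 CPM over 9 plates with a median of 20.3, and Cnp from 10.4 to 45.9 CPM with a median of 19.0. The order of Mbp by mean level was the adult, P7, E11, E12, E15, E18, E13 and P4, in which the plates of P7 overlapped those of E11 and E15, E15 also overlapped E11 and E18 and spanned the E12 plate, and E13 overlapped P4. For Cnp the 2 plates of E18 stood at 45.9 and 12.1 CPM. Mag had 17 and 7 counts at E11 and 19 at E12, or 1.43 to 4.0 CPM, and at most 3 counts a plate from E13 to P4. Mog, Mobp and Ermn stayed at 2 counts or fewer on each of the 11 plates from E11 to P4. Mal had 27 counts on E18 plate 1, or 10.8 CPM, and 11 on P4 plate 1, and at most 4 counts on the other 9 of those plates. The E18 well with most Mal held 8 UMIs and had 4 of 6 ependymal markers.

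From E11 to P4, Mbp went from 22.0 and 26.4 CPM to 8.14 and 7.82 CPM (log2 fold change -1.53, SE 0.52, adjusted p = 0.0513). Cnp went from 12.2 and 10.4 CPM to 20.9 and 16.0 CPM (log2 fold change 0.77, SE 0.62, adjusted p = 0.398). The plates of the 2 stages did not overlap for either gene, a separation that was not counted over all genes. In edgeR 0 of 8 members passed, beside 24.3% of genes. At an unadjusted p under 0.05 it was 2 of 8 members, beside 37.5% of genes, and DESeq2 called 2, beside 27.8%.

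Part of the early Mbp counts came from unspliced transcripts, which the deposited tables count apart. From E11 to E18, 171 of 539 Mbp UMIs, or 31.7% (exact 95% binomial interval 27.8 to 35.8), were unspliced. The share was 21.2% at P4, 7.21% (4.95 to 10.1) at P7 and 3.76% (3.01 to 4.63) in the adult, while that of all genes together lay between 22.1% and 25.3%. For Cnp it went from 7.92% before birth to 3.96% at P4, then to 1.39% a stage later and to 0.563% in adult cells. In both genes the share of the adult lay below that of the embryo beyond the intervals, which pool plates and cover counting error only. Among the other members the adult shares ran from 0.268% for Ermn to 9.30% for Mobp.

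**Figure D2:**
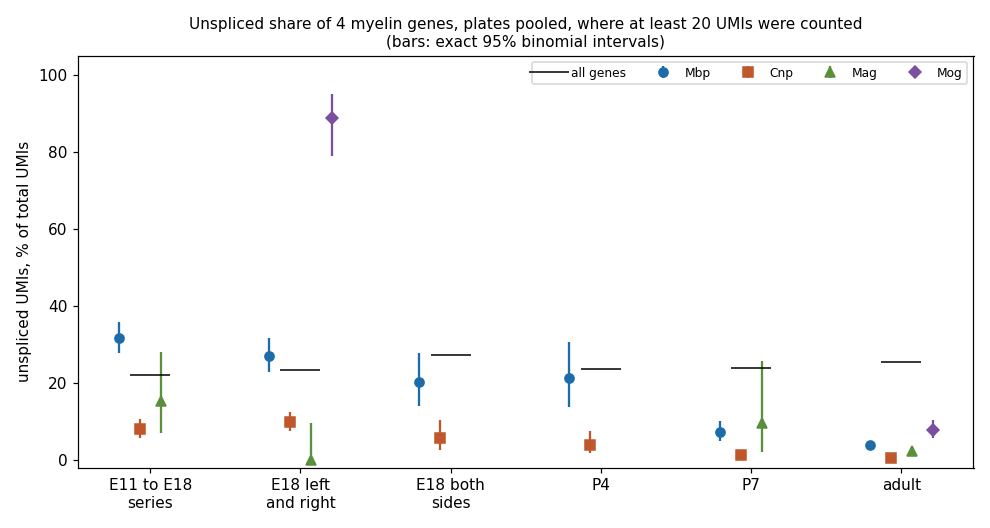
Unspliced UMIs as a percentage of total UMIs for Mbp, Cnp, Mag and Mog, with plates pooled and exact 95% binomial intervals as bars, where at least 20 UMIs were counted, and black dashes for all genes together. Mbp goes from 31.7% in the embryo to 3.76% in the adult, and Mog of the left and right plates at E18 stands at 88.7%.

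At E18 in C57BL/6 mice the same pair of genes led. Mbp stood at 26.9 and 24.3 CPM on the left plates, 23.2 and 18.5 CPM on the right plates and 22.5 CPM on the plate of both sides. Cnp stood at 40.5 and 26.5 CPM on the left, 30.6 and 32.9 CPM on the right and 24.1 CPM on both sides. The sides overlapped for Cnp, and for Mbp the left plates lay above the right plates, an order that was not counted over all genes. Mag ran from 1.21 to 3.25 CPM over the 5 plates, and Mobp, Cldn11 and Mal were at most at 1.63 CPM. Mog had 30 and 4 counts on the left plates and 28 and 9 on the right plates, or 2.16 to 5.07 CPM, and 1 count on the plate of both sides. Of these Mog UMIs on the left and right plates, 63 of 71, or 88.7% (79.0 to 95.01), were unspliced, against 41 of 524, or 7.82%, in the adult. In edgeR, 0 of the 4 members tested, Mbp, Mag, Mog and Cnp, differed between left and right, beside 0% of 15489 genes. Their log2 fold changes of left over right ran from 0.01 to 0.70, and 0 of the 4 had an unadjusted p under 0.05, as had 182 of all genes, or 1.18%. DESeq2 called 0 of them, beside 0.00646% of genes. Erythroid markers summed to 16915 and 14890 CPM on the left plates and 3121 and 251 CPM on the right plates, and their part in this comparison was not tested.

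The low counts in neurons were read from cells with at least 1 UMI of Pou4f1, set against the kept cells of the same plate with none. In the adult, 9 of 10 neuron markers and 10 of 10 habenula markers were higher in the Pou4f1 cells. Pou4f1 itself is among the latter and had to be higher, since it set the class. All 7 astrocyte markers and 15 of the 16 mature oligodendrocyte markers were lower. Cells with Pou4f1 were also deeper, with a median of 22176 counts against 5323 on adult plate 2 and 14003 against 3098 on adult plate 1. Before birth the 2 classes kept no common order. On the 9 plates from E11 to E18, Mbp was higher in the Pou4f1 cells on 7 and lower on 2, and so was Cnp. In the second set at E18, Cnp was lower in the Pou4f1 cells on 5 of 5 plates and Mbp on 4 of 5. At E11, Mbp stood at 21.2 and 27.4 CPM in Pou4f1 cells and at 39.4 and 10.3 CPM in the others, where it rested on 9 and 3 counts. In edgeR with the plate as a block, 0 of 8 members differed at E11, beside 5.96% of the 16086 genes tested, with 2 of 8 at an unadjusted p under 0.05, Mog and Cldn11, beside 16.5% of genes, and 0 by DESeq2, beside 4.43%. In the Pou4f1 cells of E11 to E18 lay 90.5% of all Mbp counts and 75.4% of all Cnp counts, beside 85.4% of the counts of all genes.

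From P4 on, some members were lower in Pou4f1 cells by the test, which was not run at E18. In the second set at E18, Cnp in Pou4f1 cells already stood at 33.1% to 64.1% of its level in the other cells. At P4, Cnp stood at 19.1 and 14.7 CPM in Pou4f1 cells and at 73.1 and 54.8 CPM in the others. In edgeR it was lower in Pou4f1 cells (log2 fold change -1.58, SE 0.49, adjusted p = 0.0181), and so was Mal (-7.08, SE 1.26, adjusted p = 9.65e-05), whose 10 counts outside Pou4f1 cells all came from P4 plate 1. These were 2 of 8 members, beside 9.59% of genes that were lower. DESeq2 called 1, beside 15.0% of genes in either direction, and without P4 plate 1 none passed, beside 7.52%, and Mal could not be fitted. Mbp at P4 stood at 7.71 and 7.59 CPM against 20.9 and 14.9 CPM, the latter from 4 and 3 counts, and did not pass (adjusted p = 0.604).

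At P7, 5 of 8 members were lower in Pou4f1 cells in edgeR, beside 11.1% of genes. Cnp stood at 33.1 and 15.6 CPM in Pou4f1 cells against 420 and 714 CPM in the others (log2 fold change -4.23, SE 0.40, adjusted p = 9.54e-10). Cldn11 stood at 6.48 and 0.184 CPM against 266 and 187 CPM (-6.02, SE 0.58, adjusted p = 2.57e-09). Mbp stood at 36.1 and 6.81 CPM against 109 and 372 CPM (-3.30, SE 0.59, adjusted p = 5.65e-05). The Pou4f1 cells were the lower class on both plates for these 3 genes. Outside them, the top 5 wells held 79.3% of the members' counts on plate 1 and 96.8% on plate 2. On plate 2, 2 wells held 67 and 27 of the 94 Mbp counts outside Pou4f1 cells. The same wells held 64 and 89 of the 179 Cnp counts and 16 and 31 of the 47 Cldn11 counts there. The 5 members were completed by Mag and Mal. Mal rested on 9 counts, 1 on each plate in Pou4f1 cells and 1 and 6 in the others, and did not pass without plate 2 (adjusted p = 0.409). Mag had 14 counts in Pou4f1 cells of plate 1 and 0 in the others, and 4 and 13 on plate 2, so its direction rested on plate 2: without it the log2 fold change was 5.02, and 2 of 8 members passed, beside 15.3% of genes in either direction. DESeq2 called 3 of 8, beside 16.6%. Between the P7 plates the 2 classes went opposite ways for Mbp, Cnp and Mag. Plate 1 stood above plate 2 in Pou4f1 cells, and plate 2 above plate 1 in the others. A single well, the one with 201 UMIs of Mbp and 1 of Pou4f1, held 74.98% of the Mbp counts in Pou4f1 cells of plate 1, and without it their level was 9.05 CPM. The same well held 10 of the 14 Mag counts in those cells, so the order of the plates for Mag rested on it.

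In the adult all 8 members were lower in Pou4f1 cells, on both plates and in edgeR, beside 9.31% of genes that were lower. Mbp stood at 427 and 39.6 CPM in Pou4f1 cells and at 2565 and 1323 CPM in the others (log2 fold change -3.74, SE 0.53, adjusted p = 4.90e-06). Cnp stood at 644 and 71.7 CPM against 2611 and 955 CPM (-2.80, SE 0.37, adjusted p = 1.88e-06), the smallest difference of the 8. Mal stood at 121 and 3.98 CPM against 1229 and 449 CPM (-4.82, SE 0.55, adjusted p = 3.91e-07), the widest. For the other 5 the log2 fold change lay between -2.93 for Mag and -4.05 for Ermn. DESeq2 called 2 of the 8, beside 12.1% of genes in either direction, and 4 of 8 passed without adult plate 2, beside 3.05%. The median of the 8 was -3.76, against 0.01 over all genes tested.

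**Figure D3:**
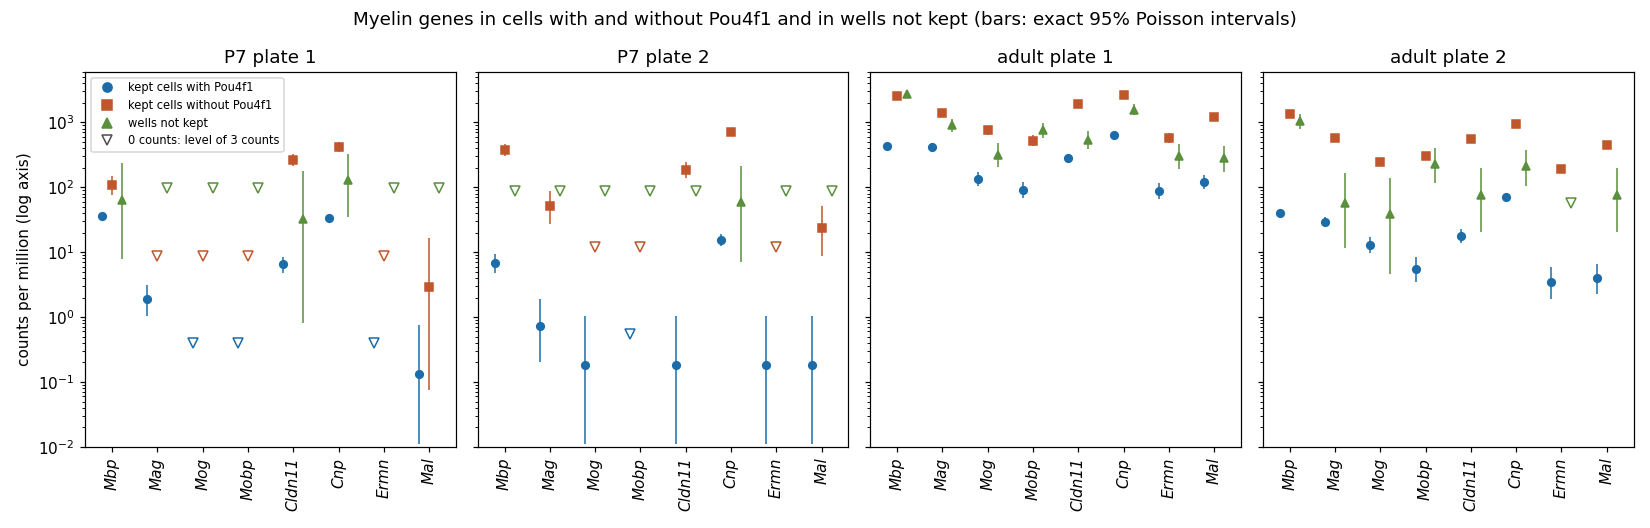
Level of each myelin gene in CPM (log axis) in kept cells with Pou4f1, kept cells without it and wells not kept, on the 2 P7 and the 2 adult plates, with exact 95% Poisson intervals as bars and open triangles at the level of 3 counts where a class had 0. On both adult plates the Pou4f1 cells lie below the other cells for all 8 genes, and on adult plate 1 they also lie below the wells not kept for all 8.

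Between the adult plates the level in Pou4f1 cells moved with the plate, but not in proportion to it. Between the P7 plates it went the opposite way to the other cells for Mbp, Cnp and Mag, where a few wells held much of the count. For Mag, 10 of the 14 counts in Pou4f1 cells of P7 plate 1 lay in 1 well. Adult plate 1 stood at 1.74 to 3.54 times the level of adult plate 2 in the other cells over the 8 genes, with a median of 2.74, and at 8.98 to 30.3 times in the Pou4f1 cells, with a median of 15.0. On adult plate 1 the level in Pou4f1 cells was 30.1% of that in the other cells for Mag (exact 95% interval 25.2 to 35.9), 24.6% for Cnp (21.5 to 28.2) and 9.80% for Mal (7.37 to 12.9). On adult plate 2 it was 7.502% for Cnp (6.55 to 8.57), 5.36% for Mog (3.90 to 7.26) and 5.06% for Mag (4.11 to 6.18). It was 2.99% for Mbp (2.52 to 3.53) and 0.887% for Mal (0.503 to 1.46) there. On both plates Cnp, Mag and Mog were the upper 3 of the 8, and Mal was the lowest. The intervals of Cnp and Mal did not overlap on either plate, but they cover counting error only, and 68.9% of the members' counts in Pou4f1 cells of adult plate 1 lay in 5 of its 21 cells. On that plate the intervals of Mbp, Mog, Mobp, Cldn11 and Ermn overlapped.

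**Figure D4:**
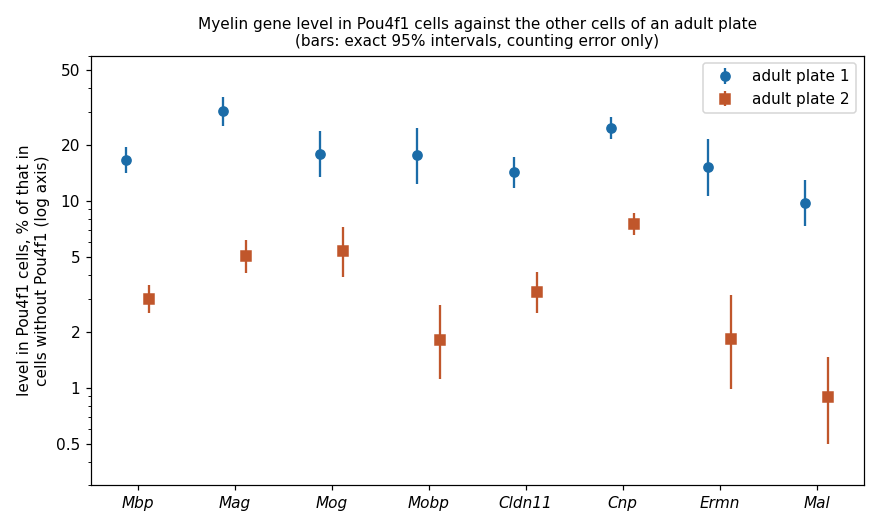
Level of each myelin gene in Pou4f1 cells as a percentage of its level in the other kept cells (log axis) on adult plates 1 and 2, with exact 95% intervals as bars that cover counting error only. All 8 genes lie higher on plate 1, and on both plates Mal is the lowest.

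Wells that were not kept as cells gave a further reading of a plate. They had too few counts or genes, or over 20% mitochondrial counts, so some can hold cells. On adult plate 1 the highest held 62.2 counts of the members, while the median well had 50 counts of all genes. On adult plate 1 the 328 such wells had 75510 counts, with Mbp at 2732 CPM, Cnp at 1576 CPM, Mag at 901 CPM, Mobp at 756 CPM, Cldn11 at 543 CPM and Mog, Ermn and Mal between 278 and 318 CPM. On adult plate 2 the 42 wells had 52417 counts, with Mbp at 1050 CPM from 55 counts, Mobp at 229 CPM from 12 and Cnp at 210 CPM from 11. The make-up of these wells differed from that of the cells. Mbp was 36.9% of the members' counts in wells not kept on adult plate 1 and 60.4% (49.6 to 70.5) on plate 2. In cells with Pou4f1 it was 19.3% and 21.5% (18.6 to 24.6), and in the other cells 22.1% and 28.8%. Cnp was 38.9% (35.4 to 42.5) of the members' counts in Pou4f1 cells of adult plate 2, against 20.8% (19.7 to 22.0) in the other cells and 12.1% (6.19 to 20.6) in the wells not kept. On adult plate 1 it was 29.2% (26.6 to 31.8) in Pou4f1 cells, 22.5% (20.8 to 24.2) in the other cells and 21.3% (18.0 to 24.9) in the wells not kept, of which the last pair of intervals overlapped. From E11 to P7 these wells held 0 to 4 counts of any member on a plate of the series.

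The counts were spread over many Pou4f1 cells at low numbers on adult plate 2. There the 8 genes summed to a median of 3 counts per Pou4f1 cell, with 19 of 180 such cells at 0 and 93.2 counts in the highest. In the other 162 cells the median was 2 and the highest had 345 counts, with 19 cells over 100. On adult plate 1 the median was 26 counts per Pou4f1 cell, with none of 21 at 0. At P4 and P7 the median was 0 in Pou4f1 cells of every plate. Thinned to 2000 UMIs a cell, which left out 2 cells with Pou4f1 and 13 others, 3.93% of Pou4f1 cells and 22.8% of the others on adult plate 2 had a UMI of Mbp. For Cnp it was 16.3% and 35.6%, and for Mobp 0 of 178 and 18.8%, where 0 of 178 allows up to 1.69%. Unthinned, the shares were 33.9% and 35.2% for Mbp and 71.1% and 55.6% for Cnp. The order for Cnp goes against the CPM, and no order is read from these shares. Whether the transcripts in Pou4f1 cells were made there was not tested.

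Cells with Pou4f1 and few oligodendrocyte markers still held some members. On adult plate 2, the 44 Pou4f1 cells with a UMI of 0 or 1 of the 16 markers had Cnp at 60.4 CPM (43.4 to 82.0) and Mag at 26.5 CPM (15.7 to 41.9). In the 136 with 2 or more markers, Cnp stood at 74.0 CPM and Mag at 29.6 CPM, within those intervals. Mbp stood at 14.7 CPM (7.07 to 27.1) in the first and at 44.7 CPM in the second, outside the interval. All 21 Pou4f1 cells of adult plate 1 had 2 markers or more. With cells of 2 or more markers left out of both classes, which takes adult plate 1 out of the comparison of classes, 0 of the 6 members tested passed in edgeR, beside 10.9% of genes, with the 1 adult plate left assumed to vary like the other stages. This setting also takes out the wells with many markers, which held most of the members' adult counts. The log2 fold change was then -2.25 for Mbp, -0.67 for Cnp and -0.48 for Mag.

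Between stages, 3 members, Mbp, Cldn11 and Cnp, passed the filter on low counts in Pou4f1 cells without the adult plates. From P7 to the adult 2 of these 3 rose in edgeR, beside 1.35% of 16353 genes that rose. The 16353 include genes that passed only through the adult plates. Cnp rose by a log2 fold change of 3.62 (SE 0.74, adjusted p = 0.0205) and Cldn11 by 5.13 (SE 1.20, adjusted p = 0.0389). The other 5 passed the filter only through the adult plates and had to differ, so their size is given with no test. Mag had a log2 fold change of 7.08 (SE 1.12), and Mobp was at least 209-fold higher by mean CPM, against 3 counts over the P7 plates. That mean joins 91.8 CPM on adult plate 1 and 5.47 CPM on adult plate 2, and the bound does not hold for each plate alone. Mbp did not pass (3.14, SE 0.86, adjusted p = 0.0628) and passed once the well with 201 UMIs was left out (4.59, adjusted p = 0.00806). Without adult plate 1, which held 21 of the 201 adult Pou4f1 cells, 0 of the 3 passed, beside 1.75% of genes, and their median log2 fold change was 1.46, against 3.62 with all plates. Without P7 plate 1 or 2 none of the 3 passed either, beside 0.49% and 0.512% of genes, at medians of 4.94 and 3.26, and without adult plate 2 it was 3 of 3, beside 7.22%, at 4.60. With cells of 2 or more markers left out on all plates, 44 cells of adult plate 2 stood for the adult and 0 of the 3 passed, beside 1.58% of genes, at a median of 1.47 and with the spread taken from the other stages. When the 4 plates of both stages were fitted alone, 0 of the 3 passed at a median of 3.81, beside 0.814% of genes. In the same Pou4f1 cells the 16 mature oligodendrocyte markers summed to 48.6 to 98.3 CPM at P7 and 245 to 3656 CPM in the adult, and the 7 astrocyte markers to 42.7 to 54.8 CPM and 263 to 362 CPM, and their part in the rise was not tested. From E11 to P4, 0 of 8 members passed, beside 30.6% of genes, and from P4 to P7 0 of 8, beside 0.00612%. In neither was any unadjusted p of a member under 0.05, beside 42.1% and 3.37% of genes, and DESeq2 called 0 of 8 in both, beside 31.7% and 0.251%.

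Cnp and Mal were also read in wells with markers of other cell types, some of which held a UMI of Pou4f1 as well. Cnp stood at 98.3 CPM in wells with 4 or more astrocyte markers from E11 to E18, at 89.1 CPM at P4 and at 313.6 CPM at P7, each above its level in Pou4f1 cells of the same plates, 15.4, 16.8 and 25.7 CPM. In the adult, Mal stood at 373 CPM in 20 wells with 4 or more endothelial and mural markers, from 30 counts in 15 of them, against 417 and 93.4 CPM over all kept cells of the 2 adult plates. Of the members' adult counts, between 86.2% for Cnp and 97.6% for Ermn lay in the 132 wells with 4 or more mature oligodendrocyte markers, a class that can also hold neurons with stray transcripts.

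Other genes of the oligodendrocyte lineage were read from lists of the same kind. As with the members, genes that passed the filter on low counts only through the adult plates are not counted. Of 25 further myelin and oligodendrocyte genes, 18 passed it without them, and of these 12 rose from P7 to the adult in edgeR and 0 fell, with a median log2 fold change of 3.58. Of all genes 1.76% rose and 1.82% fell, and of the 16807 that passed without the adult plates it was 1.54% and 1.89%. Car2, a carbonic anhydrase, and Cryab, a small heat-shock protein, were among those that rose, by log2 fold changes of 3.53 and 6.41, while Apod missed the threshold (4.05, adjusted p = 0.0543). Of 12 glial transcription factors 10 passed that way and 3 rose, Sox10, Myrf and St18. Sox10 went from 20.9 and 9.17 CPM to 630 and 201 CPM (adjusted p = 0.00884). Olig1 (4.13, adjusted p = 0.0799) and Olig2 (3.25, adjusted p = 0.0887) did not pass, and Zfp536 had a log2 fold change of -0.48.

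Of 12 enzymes and transporters of myelin lipid supply, 11 passed the filter without the adult plates and 3 rose, among them Ugt8a and Fa2h. Ugt8a, which makes galactosylceramide, had a log2 fold change of 3.25 and Fa2h, a fatty acid hydroxylase, one of 3.98. Hmgcs1 of sterol synthesis (-0.78) and Sgms1 of sphingomyelin synthesis (0.35) did not pass. Of 10 precursor genes 8 passed that way and 1 rose, Cspg4, while Pdgfra missed the threshold (3.55, adjusted p = 0.0520) and Lhfpl3 (0.19), Ptprz1 (0.51) and Cacng4 (0.03) did not pass. Of 10 genes of newly formed oligodendrocytes 0 rose and 2 fell, Fyn (-0.97, adjusted p = 0.0298) and Mpzl1. Tnr (0.34), Bcas1 (1.06) and Tmem2 (-0.34) did not pass. In the same comparison the 10 habenula markers had 0 calls and 1 of 10 neuron markers fell.

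Genes were also ranked by the likeness of their pattern to that of the members. Over the 20 plates, with 7 members since Ermn was not analysed in the second set, the highest Pearson r with their mean log2(CPM + 1) was 0.98 for Opalin of 14210 genes, and Tmem88b and Hapln2, each at 0.97, were also among the upper 5. The 2 adult plates stand apart from the rest and carry these values. Over the 398 kept adult cells, the upper 5 of 13188 genes included Sept4 at 0.82, Trf and Cryab at 0.80 and Tmem88b at 0.78. Cells of a plate share its library, and their depths differ. Each member's r with the sum of the other 7 over these cells ran from 0.73 for Mal to 0.85 for Cldn11.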

How the data were processed

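Cel-seq2 libraries of 20 plates of single cells were read, 15 of the developmental series and 5 of the second set. The authors deposited expected counts, which are UMI counts corrected for UMIs of 6 bases that coincide, in total, spliced and unspliced tables. Of the values above 0, 46.1% and 43.8% were whole as deposited, and inverting the correction gave whole UMIs for 100% within 1e-06. Reads were mapped with STAR 2.5.3a to mm10, per the submitters' processing notes, and spike-ins were added, per the labels' protocols. The design foresaw whole counts, which edgeR needs, so the expected counts were summed per plate or class and rounded for the fits.

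A kept cell had at least 1000 counts outside spike-in and mitochondrial rows, at least 500 genes and at most 20% mitochondrial counts, which left 3729 cells of the series and 1082 of the second set. No doublet caller was run, so a Pou4f1 cell can be a doublet. Levels are scaled to 1000000 counts without spike-ins (CPM). Plates were the replicates. edgeR 4.0.16 (R 4.3.3) was run with filterByExpr, TMM, glmQLFit and Benjamini-Hochberg adjustment at 0.05. Stages were fitted on 14 plates without E12, which has 1 plate, classes by Pou4f1 on 15 plates with the plate as a block, and sides on 4 plates. The fit was tested on simulated data. DESeq2 1.42.0, other filters, other cell rules and leaving out each plate were alternatives. Intervals are exact at 95% and cover counting error only.

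The members and gene lists were chosen with earlier results of these data known. All 8 members are named in each comparison, and of each other list the 4 genes with the highest mean adult level, beside the 5 genes most like the members over plates and over adult cells; a few genes that this rule names are not reported here. Genes named beyond that rule, such as those called in short lists and the markers of single wells, were chosen after their values were seen. Same-numbered plates were not taken as pairs: of 21 pairs of stages in the series, 4 had a correlation of deviations over 0.1, from -0.36 to 0.25 over all 21. The left and right plates at E18, a single pair of groups, had 0.23.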

Additional observations from a re-analysis of the deposited data

Results flagged for a closer look

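At some embryonic stages of the series the difference between Pou4f1 cells and the other cells had the opposite sign to that after birth, while other embryonic plates, most of those of the second set among them, had the same sign as after birth. For Mbp, the mean level in Pou4f1 cells minus that in the other cells was 5.50 CPM at E13 and 2.10 CPM at E15, positive on both plates of each stage. It was -10.3 CPM at P4, -219 CPM at P7 and -1711 CPM in the adult, negative on both plates of each. For Cnp it was 3.67 CPM at E11 and 3.43 CPM at E15, and -47.0 CPM at P4, -542 CPM at P7 and -1425 CPM in the adult, again with both plates of a stage on 1 side. The difference between stages was not tested. Outside Pou4f1 cells, the E13 and E15 values of Mbp rest on 1 to 6 counts a plate. Those of Cnp rest on 2 and 2 counts at E11 and on 4 and 3 counts at E15.

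Wells not kept as cells, which enter only an alternative fit over all wells, held member counts above the 3 that a count of 0 allows. On adult plate 1 the wells not kept held 206 counts of Mbp, 119 of Cnp, 68 of Mag, 57 of Mobp, 41 of Cldn11, 24 of Mog, 23 of Ermn and 21 of Mal. On adult plate 2 they held 55 of Mbp, 12 of Mobp, 11 of Cnp, 4 of Cldn11 and 4 of Mal. Elsewhere this was so for Mbp on the E12 plate and Cnp on P7 plate 1, with 4 counts each. The E18 plate of both sides, which is in no test, had 148 counts of Mbp, 159 of Cnp and 8 of Mag in kept cells.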

How the results depend on the processing

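Counts below are of members called, then of all genes called, each beside its value in the main setting. From P7 to the adult they include, unless stated otherwise, members that passed the filter on low counts only through the adult plates, and those had to differ. Of 1074 values of single genes under an alternative, 963 kept their side of the threshold, 77 lost the call and 32 gained it. The other 2 turned in sign with a call in either fit. Changes of sign where neither fit made a call are counted among the 963. Both turned values are of Mag between classes at P7, 3.40 with cells of 2 or more markers left out and 5.02 without P7 plate 2, against -5.66 without P7 plate 1. With RLE size factors, recovered UMIs or all wells, no count of members called moved by more than 1.5 times.

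With DESeq2, 2 members passed from E11 to P4 (0), beside 27.8% of genes. Between classes it called 1 for P4 (2), 3 for P7 (5) and 2 for the adult (8), beside 15.0%, 16.6% and 12.1% of genes. All genes called went to 22 from P4 to P7 (1), 1411 from P7 to the adult (625), 41 (1) and 1251 (602) for the same steps in Pou4f1 cells, and 1 for left against right (0). With no filter on low counts, members called were 3 from E11 to P4 and 2 from E18 to P4 (1), beside 12.4% and 12.8% of genes. From P4 to P7 it was 4 (0), beside 0.362%. In Pou4f1 cells it was 2 in each of the first 2 steps (0), beside 14.7% and 0.379%. Between classes at E11 it was 1 (0), beside 2.91%. All genes called were 136 from P4 to P7 in both fits, 1766 and 1465 from P7 to the adult, and 37 for left against right.

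With cells of at least 2000 UMIs, 1 member passed from E11 to P4, beside 24.1% of genes. With wells above 3 times the median left out it was also 1, beside 24.5%. That setting gave 0 genes from P4 to P7, and 7 and 389 in Pou4f1 cells from P4 to P7 and from P7 to the adult. With the 4 plates of both stages alone, members called were 2 from E11 to P4, 0 from E18 to P4, 3 from P4 to P7, and in Pou4f1 cells 2 from E11 to P4 and 0 from P7 to the adult (7). All genes called were then 8777 (4244), 528 (3421), 541 (1), and in Pou4f1 cells 8897 (5007), 600 (1) for P4 to P7 and 116 (602). From E11 to P4 these were 58.3% of the genes tested, and 60.4% in Pou4f1 cells. With 2 UMIs of Pou4f1 asked for, 1 member passed from E11 to P4 in Pou4f1 cells, beside 34.3% of genes. In the later steps 2 and 917 genes passed. With cells of 2 or more markers left out, members called in Pou4f1 cells were 2 from E11 to P4 and 1 from P7 to the adult, with 11 and 273 genes in the later steps. Between classes they were 1 for P4, 3 for P7 and 0 for the adult, with 1725 genes (2658). With those cells left out, 33.4% of genes were called from E11 to P4 in Pou4f1 cells. Between classes it was 19.3% of genes at P4 and 21.5% at P7. Without the plate as a block, classes gave 1 member at P4 and 3 at P7, beside 16.5% and 20.0% of genes. At E11 they gave 155 genes (959).

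With the replicate number as a block, only members that passed the filter without the adult plates are counted. From P7 to the adult 4 of 4 rose (4), and in Pou4f1 cells 2 of 3 (2). These stood beside 2.82% and 3.12% of genes called in either direction. Left against right gave 6 genes (0). The block moved no other count by over 1.5 times, and the samples share only a number.

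Leaving out each plate in turn gave these ranges of members called: 0 to 1 from E18 to P4, 3 to 8 from P7 to the adult, 0 to 8 for the latter in Pou4f1 cells, and between classes 0 to 1 for P4, 2 to 5 for P7 and 4 to 8 for the adult. It gave 0 to 0 in the other comparisons. All genes called ranged from 1535 to 1875 for E11 to P4, 574 to 5695 for E18 to P4, 0 to 0 for P4 to P7 and 27 to 1074 for P7 to the adult. In Pou4f1 cells they ranged from 2372 to 2522, 0 to 1 and 88 to 1292. Between classes they ranged from 90 to 331 for E11, from 1201 to 1467 for P4, from 1237 to 2434 for P7 and from 478 to 2603 for the adult. For the sides the range was 18 to 39. Mal between classes at P4 gave no value without P4 plate 1. The causes were not tested. Before the adult, Mog, Mobp, Ermn and Mal rest on few counts.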
